A study of Mus musculus with 6 samples.

Results

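ABC transporters are membrane pumps that use ATP to move lipids, drugs, peptides, haem precursors and ions. They were examined in stem cell-enriched mouse bone marrow with and without the nuclear receptors Nr4a1 and Nr4a3. Members were taken from the array's annotation, by gene symbols that begin with Abc, a letter from a to g and a number. This gave 92 probe sets of 45 genes, out of 45037 probe sets and 18193 genes named alone by a probe set. A probe set is a group of short probes on the array whose combined brightness, the MAS5 signal, stands for a transcript.

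The mice without both receptors (Nr4a1 Nr4a3 double knockout, DKO) had a C57BL/6 and 129SvJ hybrid background and came from crosses of single knockouts. They were compared with wild-type (WT) mice, whose strain the labels do not give. All mice were 2 to 3 weeks old, and each group had 3 arrays. Each array held RNA of sorted cells, without lineage markers and with Sca1, pooled from 10 to 20 mice, so each array stands for 1 pool and not for 1 mouse. The labels name no cell type to which the deletion was limited. The marrow around the sorted cells is therefore taken to lack both receptors too, though it was not measured.

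ABC proteins pair ATP-binding domains with membrane-spanning domains and are sorted by sequence into subfamilies A to G. In bone marrow the family is best known for dye efflux: Abcg2 and the P-glycoproteins Abcb1a and Abcb1b pump out fluorescent dyes, which lets stem cells be sorted as a weakly stained side population. Abca1 and Abcg1 export cholesterol to apolipoproteins and lipoproteins, and mice that lack both have expanded stem and progenitor cells. NR4A proteins bind DNA as monomers at an octamer called the NBRE, and LXR receptors, which drive Abca1 and Abcg1, bind repeats of a related hexamer.

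Promoter windows, 250 bases before to 50 bases after a start site, were taken from RefSeq (build GRCm38.p6) and were found for 35 of the 45 ABC genes, in 42 windows. Abcg1 was not searched. Each motif was searched on both strands. The NBRE, AAAGGTCA, was in 1 of 42 ABC windows (2.38%), that of Abcc2, against 1.51% of 32851 windows of all genes. The hexamer AGGTCA, which the NBRE contains, was in 7 of 42 ABC windows (16.7%), against 16.3% of all. This hexamer followed by any 4 bases and the same hexamer again was in 0 of 42, against 0.0152% of all. Only exact copies of this repeat were searched, and only 5 of 32851 windows held one. The 0 of 42 therefore cannot show that a window, that of Abca1 included, lacks an LXR site. The E-box CACGTG was in 5 of 42 (11.9%), against 7.15% of all, and the GC box GGGCGG in 21 of 42 (50%), against 35.7% of all. The windows below belong to Abca1, Abcg2 and Abcg3, which had lower signals in DKO arrays; for Abcg2 they are the ones that hold the hexamer. Capitals mark the hexamer, the E-box and the GC box on either strand.
Abca1, chr4:53159846-53160145, minus strand: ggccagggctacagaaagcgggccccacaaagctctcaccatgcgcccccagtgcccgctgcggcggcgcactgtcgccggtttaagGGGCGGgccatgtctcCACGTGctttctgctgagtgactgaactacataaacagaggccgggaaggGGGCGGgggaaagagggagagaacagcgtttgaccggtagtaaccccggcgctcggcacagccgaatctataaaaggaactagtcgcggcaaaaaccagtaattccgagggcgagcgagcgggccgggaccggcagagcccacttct
Abcg2, chr6:58584283-58584582, plus strand: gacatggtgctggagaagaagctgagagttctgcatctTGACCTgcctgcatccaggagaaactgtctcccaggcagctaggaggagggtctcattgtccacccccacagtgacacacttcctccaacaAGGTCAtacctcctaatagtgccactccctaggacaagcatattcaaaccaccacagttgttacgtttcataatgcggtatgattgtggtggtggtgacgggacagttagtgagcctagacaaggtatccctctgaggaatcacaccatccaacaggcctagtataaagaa
Abcg2, chr6:58640296-58640595, plus strand: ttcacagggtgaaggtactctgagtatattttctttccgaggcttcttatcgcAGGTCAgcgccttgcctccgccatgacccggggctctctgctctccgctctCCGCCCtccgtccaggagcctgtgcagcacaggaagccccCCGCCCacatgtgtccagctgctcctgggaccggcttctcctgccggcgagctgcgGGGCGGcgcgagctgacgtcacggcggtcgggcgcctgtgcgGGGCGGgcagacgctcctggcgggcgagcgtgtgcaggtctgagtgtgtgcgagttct
Abcg3, chr5:104982668-104982967, minus strand: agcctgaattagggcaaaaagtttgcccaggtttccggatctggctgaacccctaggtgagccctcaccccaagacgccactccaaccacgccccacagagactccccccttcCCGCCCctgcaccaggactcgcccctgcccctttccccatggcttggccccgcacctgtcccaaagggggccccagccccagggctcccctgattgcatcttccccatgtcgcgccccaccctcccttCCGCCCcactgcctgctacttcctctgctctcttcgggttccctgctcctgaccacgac
The GC box is in the Abca1, Abcg3 and second Abcg2 windows, the hexamer in both Abcg2 windows and the E-box in that of Abca1. None of the 4 holds the NBRE. A match in these windows is a match of letters and no measured binding.

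Nr4a1 signal was 8.0, 22.4 and 33.8 on the DKO arrays, against 1110.5, 1269.4 and 816.3 on the WT arrays. Nr4a3 had 3 probe sets, all below the limit for testing, and these check no label. For the markers, fell and rose mean lower or higher in DKO at an adjusted p under 0.05 in the limma test described below. Of 10 stem cell markers tested, 9 were lower in DKO, against 54.4% of all probe sets tested, and 6 fell, against 0.563% of all. Their median log2 difference was -1.31. Of 9 mast cell, basophil and eosinophil markers 7 rose, and of 9 T and NK cell markers 7 rose, against 0.807% of all. The WT arrays were spread. WT replicate 2 had the highest mean level of neutrophil, B lineage and erythroid markers (log2 levels 1.61, 1.68 and 1.6 above the 6-array mean). WT replicate 3 had the lowest level of neutrophil and erythroid markers (-1.36 and -1.10). The ratio of 3′ to 5′ probe set signals of a control gene is a measure of RNA integrity. For beta-actin it was 1.24 to 1.49 in DKO and 1.06 to 1.40 in WT. For Gapdh it was 4.74 to 9.96 in DKO and 6.47 to 9.69 in WT. The Gapdh ratio was far above the beta-actin ratio on every array, so these controls do not show that the RNA was intact. The part of RNA integrity in the differences was not tested.

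No ABC transporter probe set passed the test. Signals were taken as log2(signal + 16), the dimmest 40% of all probe sets were left out (a limit near a signal of 53.2), and the rest were compared with limma, where a probe set passes at a Benjamini-Hochberg adjusted p under 0.05 over all 27022 tested. Of the 92 ABC probe sets 55 were tested, for 29 genes. Of these 0 passed in either direction, against 1.37% of all probe sets tested (0.807% higher and 0.563% lower in DKO), and the smallest adjusted p was 0.104. At an adjusted p under 0.10 there were also 0, against 2.73% of all. At an unadjusted p under 0.05 there were 12 of 55 (21.8%), against 14.2% of all. Of these 12, 10 were lower in DKO (18.2% of 55, against 8.18% of all) and 2 higher (3.64%, against 6.04% of all). The 10 lower probe sets belonged to 7 genes, so some genes were counted more than once. The DKO and WT signals did not overlap for 14 of 55 (25.5%), against 19.8% of all. Of these 14, 9 were lower in DKO (16.4%, against 11.1% of all) and 5 higher (9.09%, against 8.76% of all). The 9 lower probe sets belonged to 6 genes and the 5 higher ones to 4. The log2 difference, DKO minus WT, was below 0 for 33 of 55 (60%), against 54.4% of all, and its median was -0.10, beside -0.05 for all. This split depended on the scaling: 27 of 55 (49.1%) were below 0 with median centring, against 45.3% of all, and 27 of 55 with quantile normalization, against 49.5% of all. Median centring moved the median of all probe sets from -0.05 to 0.06. The log2 differences of all probe sets tested ran from -1.04 at the 5th percentile to 0.86 at the 95th percentile.

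**Figure D1:**
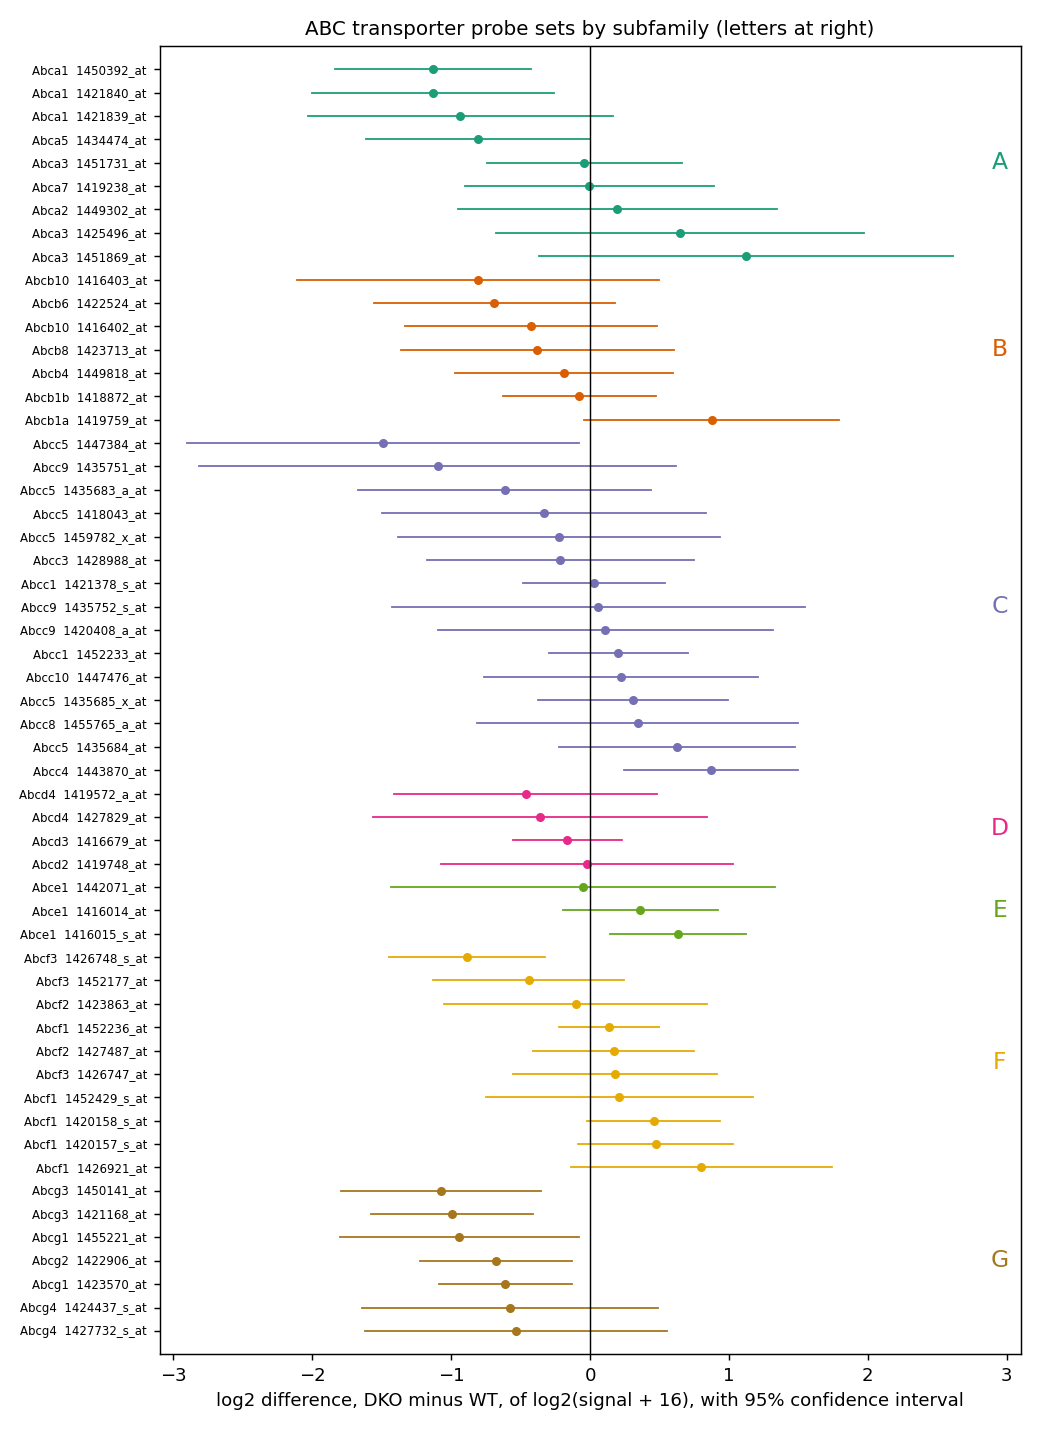
Log2 difference, DKO minus WT, of each of the 55 tested ABC transporter probe sets (points) with its 95% confidence interval (lines), by subfamily A to G. All 7 probe sets of subfamily G and all 4 of D lie below 0, and those of A, B, C, E and F lie on both sides.

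In subfamily G, which holds Abcg1 and Abcg2, all tested probe sets were lower in DKO, also with median centring and quantile normalization. The 7 tested probe sets of G, of 4 genes, had a median log2 difference of -0.67 and a range from -1.07 to -0.53. For 5 of the 7 the groups did not overlap, all with DKO lower, against 11.1% of all probe sets tested. The stem cell markers were lower on the same arrays, 9 of 10 tested, and their summed signal was 17711 to 20651 in DKO, against 35686 to 43425 in WT; their part in the differences of Abcg1, Abcg2, Abcg3 and Abcg4 was not tested. Subfamily D had 4 probe sets, all lower in DKO but 3 of 4 with either other scaling, with a median of -0.26, and in none of them did the groups separate. The medians were -0.04 in A (9 probe sets; 0.067 with median centring, 0.058 with quantile normalization and -0.97 when the filter took the dimmest 60%), -0.38 in B (7), 0.06 in C (15), 0.36 in E (3) and 0.17 in F (10). These medians rested in part on single arrays. Without WT replicate 2 the median was -0.31 in A, -0.12 in B and -0.087 in D, and without DKO replicate 3 it was -0.28 in A, -0.16 in B and -0.17 in D. Without DKO replicate 1 it was -0.46 in D, 0.14 in E and 0.075 in F, and without DKO replicate 2 it was 0.065 in A and 0.67 in E. That of C turned to -0.041 without WT replicate 1, as A did to 0.035. That of D was -0.45 without WT replicate 3, and that of F was 0.033 when a gene's probe sets were averaged first. The median level of G relative to each probe set's mean was -0.44, -0.29 and -0.52 on the DKO arrays, against 0.36, 0.51 and 0.21 on the WT arrays. All DKO arrays lay below all WT arrays for G, while in the 6 other subfamilies the arrays of both groups overlapped.

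**Figure D2:**
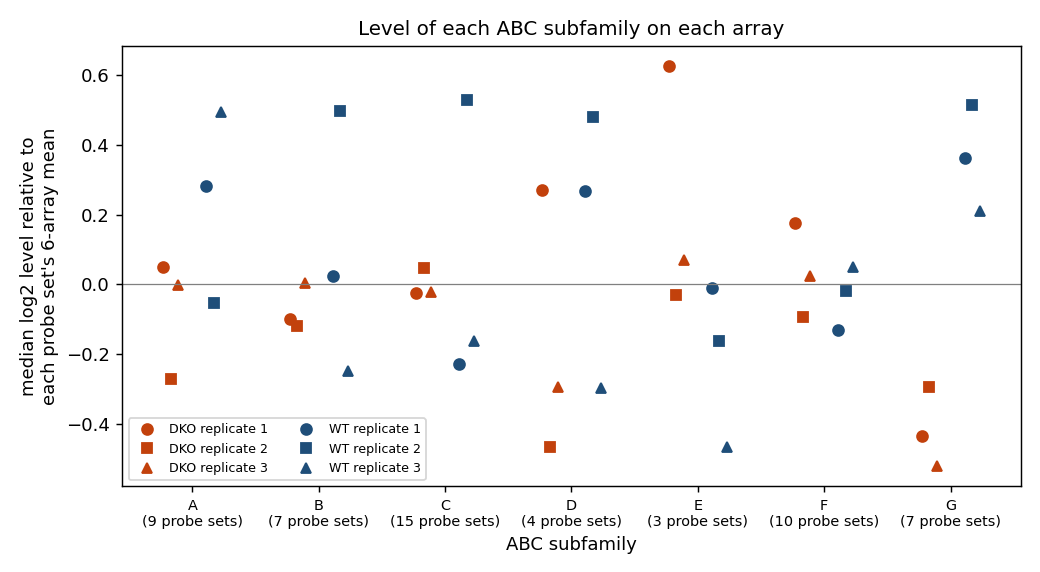
Median log2 level of the tested probe sets of each subfamily on each array, relative to each probe set's mean over the 6 arrays. In subfamily G the DKO arrays (-0.52 to -0.29) lie below the WT arrays (0.21 to 0.51); in B and C WT replicate 2 lies above the 5 other arrays.

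Abcg2, the dye pump that defines the side population, had a single probe set, 1422906_at. Its signal was 512.5, 561.5 and 560.6 on the DKO arrays, against 869.0, 970.6 and 803.8 on the WT arrays. Every DKO array lay below every WT array. The means were 544.9 ± 28.0 in DKO and 881.1 ± 84.1 in WT (SD, n = 3 each). The log2 difference was -0.67 ± 0.25 (SE), with a 95% confidence interval from -1.22 to -0.13, a DKO level 0.626 of that in WT, and did not pass (adjusted p = 0.240). Leaving out 1 array gave -0.74 to -0.60. In bulk RNA fewer cells of a type and less RNA per cell cannot be told apart.

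Abcb1b, the P-glycoprotein gene with the steadier signal here, had 622.9, 613.1 and 719.8 on the DKO arrays, against 676.8, 647.9 and 737.1 on the WT arrays at 1418872_at. The groups overlapped, and the log2 difference was -0.08 ± 0.25 (adjusted p = 0.933). Its interval ran from -0.63 to 0.48, and its sign turned with other scalings (0.031 with median centring and 0.011 with quantile normalization). The second Abcb1b probe set, 1446701_at, was below the limit, with 40.9, 2.9 and 52.0 in DKO and 2.0, 2.2 and 5.0 in WT.

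Abcb1a, the other P-glycoprotein gene, had 139.4, 162.5 and 181.1 on the DKO arrays at 1419759_at, against 105.8, 89.9 and 52.7 on the WT arrays. All DKO arrays were higher, and the log2 difference was 0.88 ± 0.42 (interval -0.05 to 1.80), which did not pass (adjusted p = 0.374). The second Abcb1a probe set, 1419758_at, ran the other way at signals below the limit, with 5.3, 0.5 and 0.5 in DKO and 42.7, 19.3 and 20.3 in WT. The 2 probe sets of this gene thus disagreed in sign. Abcb1a and Abcb1b are close copies, and probes of one can bind transcripts of the other.

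**Figure D3:**
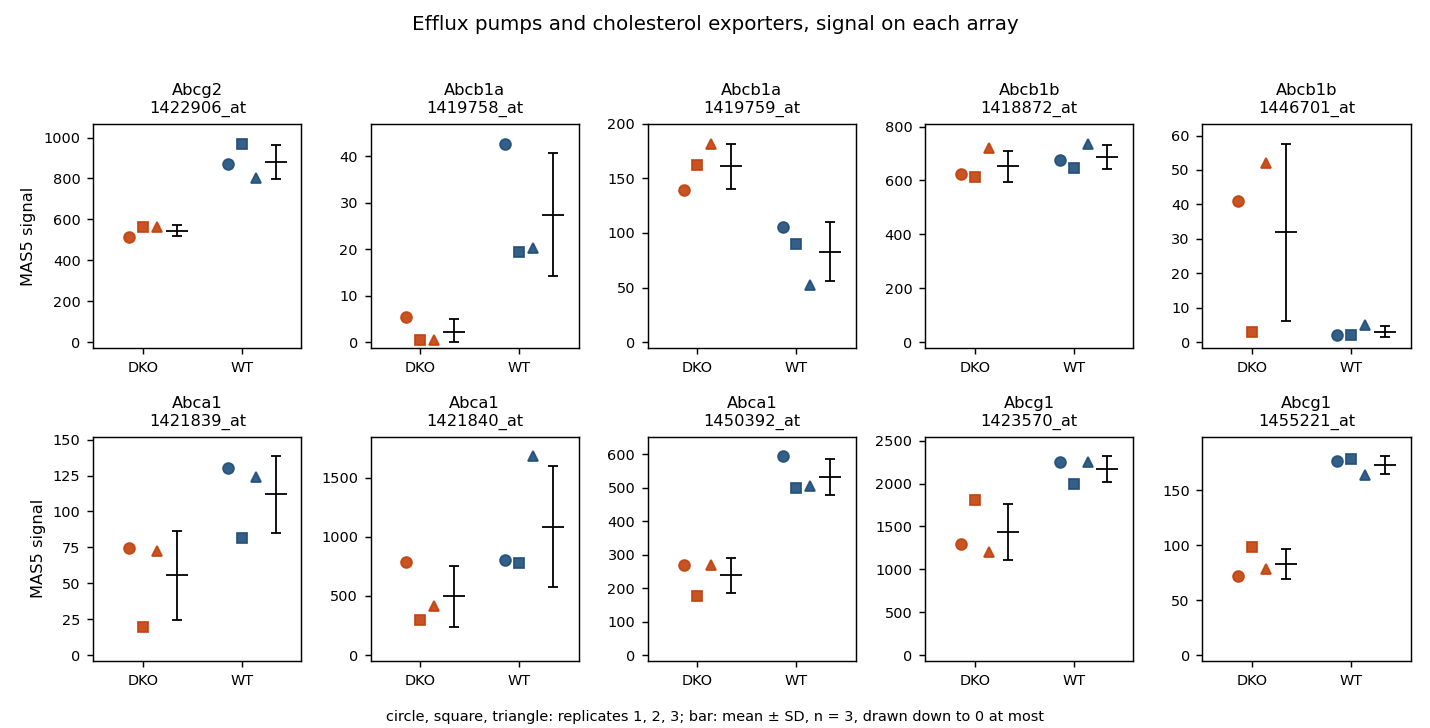
MAS5 signal (linear axis) on each of 3 DKO and 3 WT arrays for the 10 probe sets of Abcg2, Abcb1a, Abcb1b, Abca1 and Abcg1, with the mean and SD beside them. DKO points lie below WT points for Abcg2, both Abcg1, 2 of 3 Abca1 and the dim Abcb1a 1419758_at probe sets, above them for Abcb1a 1419759_at, and among them for Abcb1b 1418872_at.

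Abca1, which loads cholesterol onto lipid-poor apolipoprotein A-I, was lower in DKO at each of its 3 probe sets, and none passed. At 1450392_at the signals were 269.8, 176.0 and 268.0 in DKO, against 593.9, 500.5 and 504.3 in WT, without overlap. The log2 difference there was -1.13 ± 0.32 (interval -1.84 to -0.43, adjusted p = 0.126). At 1421840_at they were 782.9, 292.6 and 410.5 in DKO, against 805.0, 774.2 and 1678.1 in WT. Here DKO replicate 1 lay above WT replicate 2, and the log2 difference was -1.13 ± 0.40 (adjusted p = 0.218). The third, 1421839_at, had 74.5, 19.6 and 72.4 in DKO and 129.9, 81.4 and 124.1 in WT, with -0.94 ± 0.50 (adjusted p = 0.428). The start site of Abca1 lies 5.11 Mb from that of the targeted gene Nr4a3 on the same chromosome. Alleles linked to the targeted gene and the loss of the receptors cannot be told apart there, since all DKO and no WT arrays carry the mutation. Within 10 Mb of Nr4a3 2 of 167 tested probe sets passed (1.2%), against 1.37% of all probe sets tested. Their median log2 difference was -0.03, beside -0.05 for all. These values describe the region as a whole, and the part of linked alleles in the Abca1 difference was not tested.

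Abcg1, which moves cholesterol toward mature lipoproteins, was lower at both probe sets. Its signals at 1423570_at were 1293.4, 1811.4 and 1197.2 in DKO, against 2252.1, 1992.2 and 2254.6 in WT, a log2 difference of -0.61 ± 0.22 (interval -1.09 to -0.13, adjusted p = 0.226). At 1455221_at they were 71.5, 97.8 and 78.6 in DKO and 176.2, 178.1 and 163.3 in WT, a log2 difference of -0.94 ± 0.39 (adjusted p = 0.306). Neither probe set had overlapping groups and neither passed. The differences of Abca1 and Abcg1 lay within -1.51 to -0.49 whichever array was left out.

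Other genes of cholesterol handling were not lower as a list. Of 18 tested members of a list of sterol sensors, synthesis enzymes and carriers, 9 were lower and 9 higher in DKO, with a median log2 difference of 0.04, and 0 passed. The smallest p belonged to Rxra, the partner receptor of LXR, at 0.72 ± 0.30 (adjusted p = 0.301) and to Cyp51, an enzyme of cholesterol synthesis, at 0.53 ± 0.24 (adjusted p = 0.347). Another pair of LXR targets was picked after their values were seen: Mylip, which degrades the LDL receptor, was at -0.57 ± 0.32 and Srebf1, a driver of fatty acid synthesis, at 0.67 ± 0.50. They differed in sign, and neither passed (adjusted p = 0.444 and 0.590). The groups did not overlap for Mylip and did for Srebf1. A pair picked in this way does not stand for LXR targets as a set. Nr1h3, which encodes LXR alpha, was at -0.27 ± 0.47.

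Abcg3, a rodent relative of Abcg2 whose cargo is not known, had the smallest p in the family. At 1421168_at its signals were 448.4, 505.5 and 422.1 in DKO, against 1048.4, 1001.0 and 758.9 in WT, a log2 difference of -0.99 ± 0.27 (interval -1.58 to -0.41, adjusted p = 0.104). At 1450141_at they were 341.6, 324.2 and 259.8 in DKO, against 971.5, 570.9 and 522.6 in WT, a log2 difference of -1.07 ± 0.33 (adjusted p = 0.153). Both probe sets separated the groups, with DKO lower. Abcg4, a sterol transporter best known in the brain, was at -0.58 ± 0.49 and -0.53 ± 0.50 with overlapping groups. Abcg5 and Abcg8, which form the sterol exporter of liver and gut, were below the limit, with signals of 0.9 to 31.4 and 1.2 to 9.6 over all 6 arrays.

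Among the other lipid transporters of subfamily A, Abca5, a protein of lysosomes and late endosomes, had 142.2, 314.9 and 217.0 in DKO, against 426.7, 343.5 and 394.7 in WT at 1434474_at. The groups did not overlap, and the log2 difference was -0.81 ± 0.37 (adjusted p = 0.351). Its second probe set was below the limit. The 3 probe sets of Abca3, which fills the lamellar bodies of lung cells, disagreed, at 1.12, 0.65 and -0.04, each with overlapping groups. Abca2 and Abca7 were at 0.19 and -0.005 (intervals -0.95 to 1.34 and -0.90 to 0.89).

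Subfamily B also holds mitochondrial and porphyrin transporters. Abcb10, which red cell precursors need for haem synthesis, was high on 1 array: 1416402_at had 653.4, 477.3 and 704.7 in DKO, against 735.8, 1675.0 and 439.0 in WT. At 1416403_at the signals were 103.2, 68.8 and 69.6 in DKO, against 162.7, 379.9 and 49.2 in WT, so WT replicate 2 was the highest at both. The log2 differences were -0.43 ± 0.42 and -0.80 ± 0.60, and without WT replicate 2 the first was 0.083 and the second -0.18. The log2 level of the 4 tested erythroid markers was -0.37 to -0.19 in DKO, and 0.34, 1.6 and -1.10 on WT replicates 1 to 3. That of the 12 tested haem and mitochondrial iron genes was -0.25 to -0.09 in DKO, and -0.19, 1.06 and -0.37 in WT. The sort for cells without lineage markers is meant to remove red cell precursors, and their part in the Abcb10 signals was not tested. Of those 12 genes 8 were lower and 4 higher in DKO (median -0.35), and 0 passed. The smallest p were those of Alas2, the first enzyme of haem synthesis in red cells (-1.5 ± 0.65, adjusted p = 0.323), and of Slc25a37, a mitochondrial iron importer (-0.99 ± 0.45, adjusted p = 0.342). Both rested on single WT arrays. Without WT replicate 3 Alas2 passed (-2.35, adjusted p = 0.0417) and Slc25a37 was at -1.52, and without WT replicate 2 they were at -0.66 and -0.34. Abcb6, a porphyrin transporter, had 234.6, 355.2 and 569.7 in DKO and 369.4, 797.5 and 714.3 in WT (-0.69 ± 0.40, adjusted p = 0.463). Abcb4, a phosphatidylcholine transporter of bile, was at -0.19 ± 0.36 and Abcb8, a mitochondrial protein, at -0.38 ± 0.45.

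Subfamily C holds the multidrug resistance proteins and the sulfonylurea receptors. Abcc4, an exporter of cyclic nucleotides and prostaglandins, had 1248.8, 851.7 and 1261.2 in DKO, against 565.8, 469.4 and 797.2 in WT. All DKO arrays were higher, and the log2 difference was 0.87 ± 0.29 (interval 0.24 to 1.50, adjusted p = 0.183). Leaving out 1 array gave 0.70 to 1.07. The summed signal of the mast cell, basophil and eosinophil markers was 10809 to 16183 in DKO, against 504.5 to 2697.9 in WT, with all 9 tested markers higher in DKO. Among them 2 mast cell proteases did not pass, Cma1 at 0.08 (adjusted p = 0.965) and Tpsb2 at 0.65 (adjusted p = 0.579), both with overlapping groups, while Cpa3, a carboxypeptidase of mast cells and basophils, rose (log2 difference 3.65). The summed signal of the 5 tested megakaryocyte markers was 1292 to 1639 in DKO, against 516.8 to 1520.8 in WT, with 3 higher. The sort for cells without lineage markers is meant to remove mature blood cells, and the part of these cells in the Abcc4 difference was not tested.

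Abcc1, the exporter of leukotriene C4 and glutathione conjugates, had 1718.6, 2017.7 and 2656.7 in DKO and 2220.8, 1608.1 and 1680.3 in WT at 1452233_at. The groups overlapped, and the log2 differences of its 2 probe sets were 0.20 ± 0.23 and 0.03 ± 0.23, with intervals from -0.30 to 0.70 and from -0.48 to 0.54. Of 11 tested genes of glutathione and leukotriene C4 metabolism, 1 passed, against 1.37% of all probe sets tested. This was Gsr, glutathione reductase, which rose to a signal of 6057 ± 425 in DKO, against 2249 ± 179 in WT (SD, n = 3 each; limma log2 difference 1.42 ± 0.17, adjusted p = 0.00176). Without an intensity trend Gsr did not pass. Alox5, the lipoxygenase that begins leukotriene synthesis, had a log2 difference of 2.32 ± 0.52 (adjusted p = 0.0527) and passed without WT replicate 2 (adjusted p = 0.0191). In that list 5 genes were lower and 6 higher, with a median of 0.05.

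Abcc5, an exporter of cyclic nucleotides, had 10 probe sets, 6 of them tested, and they ran from -1.49 to 0.63. At 1447384_at the signals were 83.7, 4.6 and 63.1 in DKO, against 172.7, 218.4 and 65.8 in WT (-1.49 ± 0.65, adjusted p = 0.323). DKO replicate 1 lay above WT replicate 3 there. At 1435684_at they were 439.8, 635.4 and 1358.7 in DKO and 481.9, 371.7 and 558.8 in WT (0.63 ± 0.39, adjusted p = 0.508). Such a split within a gene was common: of 14 ABC genes with several tested probe sets, 6 had both signs. Abcc9, the sulfonylurea receptor of vascular cells, had 103.7, 38.4 and 104.1 in DKO at 1435751_at, against 27.1, 505.3 and 325.1 in WT, where it varied widely. Its 3 probe sets were at -1.10, 0.06 and 0.11. The channel partner Kcnj8 was at -0.78 ± 0.58 (adjusted p = 0.589) and Kcnj11, the partner of Abcc8, at -0.52 ± 0.41 (adjusted p = 0.613).

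In subfamily D, which holds peroxisomal and lysosomal transporters, no probe set passed. Abcd3, which brings fatty acids into peroxisomes, had 2431.4, 2262.6 and 2368.3 in DKO and 2405.9, 2863.3 and 2655.7 in WT. Its log2 difference was -0.16 ± 0.18, and the interval from -0.55 to 0.23 is among the narrowest in the family. Abcd4, which takes part in the export of cobalamin from lysosomes, was at -0.46 ± 0.43 and -0.36 ± 0.55 (intervals -1.41 to 0.49 and -1.56 to 0.84), and Abcd2, a peroxisomal transporter of very long-chain fatty acids, at -0.02 ± 0.48 (interval -1.07 to 1.03, and 0.089 with median centring and 0.11 with quantile normalization). Of 8 tested peroxisomal partner genes 2 were lower and 6 higher, and 0 passed. The smallest p there were those of Slc27a2, which activates very long-chain fatty acids (-1.14 ± 0.49, adjusted p = 0.316), and Ehhadh, an enzyme of peroxisomal oxidation (1.18 ± 0.51, adjusted p = 0.319).

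Proteins of subfamilies E and F have no membrane domain and act on ribosomes. The suffixes s_at and x_at, carried by 14 of the 92 ABC probe sets, mark probe sets that can match several transcripts. Abce1, which splits ribosomes for recycling, had 2301.5, 1776.4 and 1560.5 in DKO, against 1200.2, 1308.8 and 1069.3 in WT at 1416015_s_at. The groups did not overlap (0.63 ± 0.22, interval 0.14 to 1.13, adjusted p = 0.218). At 1416014_at it was at 0.36 ± 0.26 and at 1442071_at at -0.05 ± 0.63, both with overlap, and the last turned sign with median centring (0.056) and quantile normalization (0.035). Abcf1, which acts in translation initiation, was higher in DKO at all 5 tested probe sets, from 0.14 to 0.80. At 1420158_s_at its signals were 2146.8, 2463.7 and 2951.4 in DKO, against 2117.7, 1448.2 and 1951.9 in WT (0.46 ± 0.22, adjusted p = 0.368). At 1452236_at they were 4495.4, 4532.3 and 5802.6 in DKO and 4434.1, 4578.0 and 4357.5 in WT (0.14 ± 0.17, adjusted p = 0.764), with overlap. The difference at 1426921_at was 0.80 ± 0.43 (adjusted p = 0.428). Among the tested probe sets of Abce1 and Abcf1, the groups separated only at ones with the suffix s_at.

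Abcf3 did not follow Abcf1. At 1426748_s_at its signals were 862.9, 869.0 and 752.4 in DKO, against 1512.0, 1163.8 and 2066.0 in WT, without overlap (-0.88 ± 0.26, interval -1.44 to -0.32, adjusted p = 0.132). Without WT replicate 2 its adjusted p was 0.0651, the smallest for any ABC probe set under any alternative. The 2 other Abcf3 probe sets were at -0.44 ± 0.31 and 0.18 ± 0.34 with overlapping groups, so the 3 probe sets disagreed. The one that separated the groups also has the suffix s_at. Abcf2 was at -0.10 and 0.17. Of 7 tested partner genes of ribosome recycling and translation control, 1 was lower and 6 higher in DKO (median 0.19), and 0 passed. The smallest p were those of Eif2s2, a subunit of initiation factor eIF2 (0.26 ± 0.13, adjusted p = 0.388), and Etf1, the release factor (0.35 ± 0.19, adjusted p = 0.416).

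**Figure D4:**
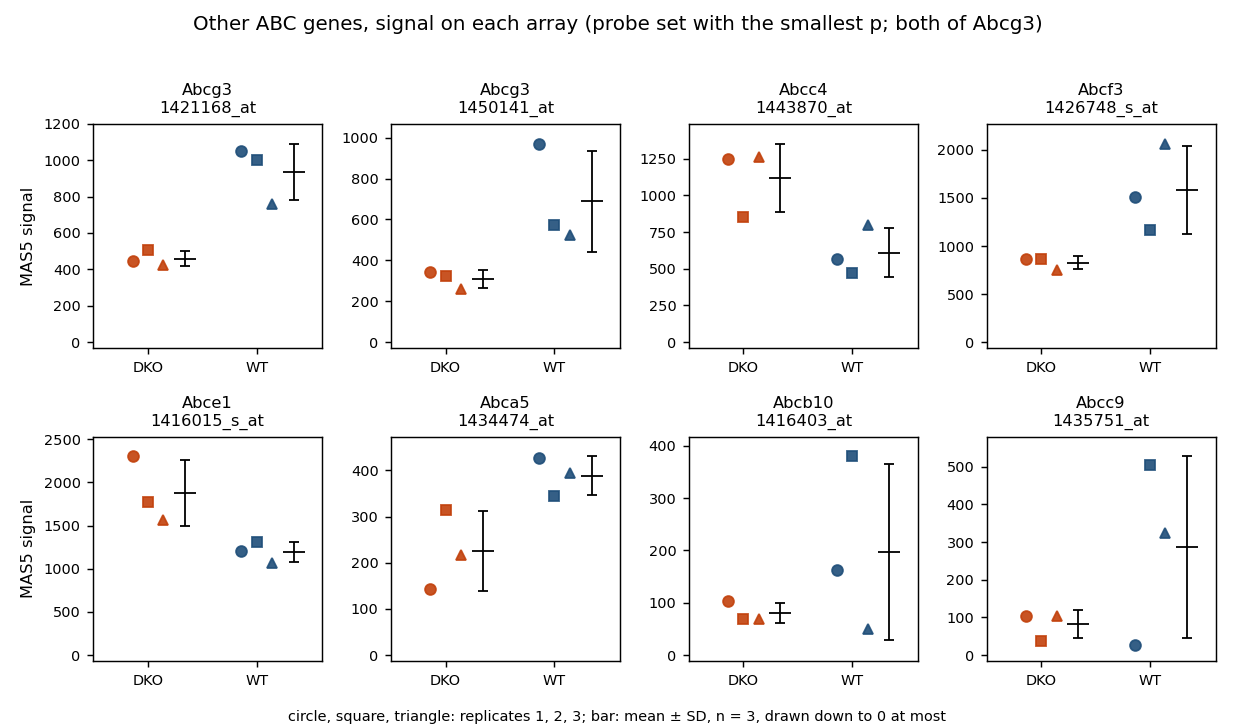
MAS5 signal (linear axis) on each of 3 DKO and 3 WT arrays, with the mean and SD beside them. Both probe sets of Abcg3 are drawn. Abcc4, Abcf3, Abce1, Abca5, Abcb10 and Abcc9 are drawn only at their tested probe set with the smallest p. At these probe sets DKO lies below WT for Abcg3, Abcf3 and Abca5 and above it for Abcc4 and Abce1. Other tested probe sets of Abcf3 and Abce1 had overlapping groups. For Abcb10 and Abcc9 the WT arrays spread over both sides of DKO.

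The peptide transporter genes Tap1 and Tap2, ABC proteins by structure whose symbols fall outside the pattern, were at 0.43 ± 0.26 and 0.44 ± 0.43 and did not pass (adjusted p = 0.496 and 0.702). The chloride channel gene Cftr, of the same kind, was below the limit. The other 37 ABC probe sets were below the limit, with signals from 0.3 to 106.8, and 16 genes were measured by such probe sets alone. These included the bile salt exporter gene Abcb11, Abcc2, Abcc6 and most of subfamily A. In 5 of the 37 (13.5%) the groups did not overlap, against 11.2% of all 18015 probe sets below the limit. One was Abca8b, with 14.9 to 20.6 in DKO and 0.7 to 2.8 in WT, and another the dim Abcb1a probe set.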

How the data were processed

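RNA of 6 sorted pools, 3 DKO and 3 WT, was measured on Affymetrix arrays. Per the submitters' processing notes MAS5 was used, with no version given, and the deposited table holds 1 linear intensity (MAS5 signal) per probe set and array. Calls of presence were not used. In the deposited intensity values the mean of every array, with 2% trimmed at each end, was 500, and this scaling was kept. All 6 columns matched the labels. Of 45101 probe sets 64 controls were left out.

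Fits used limma 3.58.1 in R 4.3.3 (lmFit, eBayes with an intensity trend, two-sided, no block) on log2(signal + 16), which understates differences of dim probe sets, with Benjamini-Hochberg adjustment over 27022 probe sets. Confidence intervals are 95% and unadjusted. A partner gene was represented by its brightest tested probe set. The fit was also run on simulated arrays with large changes planted in brighter probe sets only. That run did not measure the power to find smaller differences or differences of dim probe sets, and its recovery at each size is not given here. The members, lists and the naming rule (probe sets of Abcg2, Abcb1a, Abcb1b, Abca1 and Abcg1; in each subfamily the 3 smallest p and the brightest; in each partner list up to 4 members past the threshold, or else the 2 smallest p) were chosen with earlier results of these data known; Abca2, Abca3, Abca7, Abcb4, Abcb8, Abcc9, Abcd2, Abcf2, Abcg4, Tap1 and Tap2 are further members outside the rule. All 92 member probe sets matched RefSeq genes by identifier. No batch or date is given in the sources used here. Python 3.11.15 with matplotlib 3.10.9 made the figures.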

Additional observations from a re-analysis of the deposited data

How the results depend on the processing

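No alternative brought an ABC probe set past the threshold: the count was 0 with offsets of 1 and 64, no filter or the lowest 60% left out, quantile normalization, median centring, no intensity trend, array quality weights, a threshold of 0.10 on the adjusted p, the replicate block and each array left out (0 to 0), while 8 to 13 had an unadjusted p under 0.05. The count over all probe sets, 370, was 738 at a threshold of 0.10, 563 with array quality weights, 208 with no filter, 88 with no intensity trend and 104 to 469 with an array left out. Partner genes past the threshold, 1 (Gsr), were 2 at a threshold of 0.10, with array quality weights, median centring, an offset of 64 and quantile normalization (Alox5 beside Gsr), 0 with no intensity trend, and 1 to 2 with an array left out (Alox5 beside Gsr without WT replicate 2, Alas2 beside Gsr without WT replicate 3). With the lowest 60% left out the median of subfamily A was -0.97 and that of G -0.83; the median of F was 0.033 with a gene's probe sets averaged. With an array left out the medians ran from -0.31 to 0.065 in A, -0.46 to -0.12 in B, -0.041 to 0.12 in C, -0.46 to -0.087 in D, 0.14 to 0.67 in E, 0.075 to 0.26 in F and -0.87 to -0.63 in G. Of 440 values of the 28 named probe sets under alternatives 430 kept their sign. The sign of Abcb1b 1418872_at turned with median centring (0.031) and quantile normalization (0.011), and that of Abcb10 1416402_at without WT replicate 2, where leaving out 1 array gave -0.86 to 0.083. Abce1 1442071_at was at 0.011 with array quality weights, 0.056 with median centring, 0.051 with an offset of 64, 0.035 with quantile normalization, and -0.44 to 0.71 with an array left out; the causes were not tested. With the replicate block 0 ABC probe sets and 312 of all passed. Same-numbered arrays had deviations that correlated at 0.14, -0.03 and 0.05, against -0.13 to 0.06 for arrays of unlike number. With 3 arrays per group these values cannot show whether same-numbered arrays shared a batch. Without detection calls, the signal limit of 53.2 was the bound on what could be tested, and the number of arrays limits the precision.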
